A study of Mus musculus with 4 samples.

Results

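The developmental transcription factor families Fox, Sox, Gata, Klf, Hox and Tbx were examined in lung RNA of bleomycin-treated A/J mice. Members were the probes whose single gene symbol begins with one of these family names followed by the family's letter and number, leaving out the cell cycle gene Foxm1. Of 110 such genes on the array, 66 were measured on 3 or 4 of the 4 arrays and were tested, among 8384 tested genes in all. They comprised 18 Fox, 10 Sox, 5 Gata, 11 Klf, 15 Hox and 7 Tbx genes.

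On each of 4 arrays, amplified lung RNA from a different bleomycin-treated A/J mouse was set against the same pool of amplified lung RNA from control A/J mice. A/J is an inbred mouse strain, and bleomycin is a DNA-damaging drug used to injure the lung of animals. The sources used here do not give dose, route, time after treatment or age. The pool stands for 1 control sample, so the spread between control mice is not part of any p-value.

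A value is the log ratio of the 2 channels of an array, read here as log2 and centred on the array's median. Neither the labels nor the table state which RNA is the numerator, so genes are given by their side of 0. If the pool is the numerator, every sign turns while sizes and p-values stay. In bulk lung RNA, fewer cells of a type and less RNA per cell cannot be told apart. The arrays of mice 1 and 2 correlated over all probes at 0.73, those of mice 3 and 4 at 0.86 and the other pairs at 0.45 to 0.57. Over the tested family members the same correlations were 0.64, 0.89 and 0.27 to 0.58. Since only ratios were used here, neither the brightness of a spot nor the level of lung markers could be assessed.

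These 6 families encode DNA-binding proteins that set cell identity in the embryo and keep it in adult tissue. Fox proteins bind through a forkhead domain, Sox proteins through an HMG box, Gata and Klf proteins through zinc fingers, Hox proteins through a homeodomain and Tbx proteins through a T-box. In lung, Foxa and Gata factors act in epithelium, Foxj1 in ciliated cells, Foxf1 and Tbx factors in mesenchyme, and SoxF and Klf2 in endothelium. Hox genes lie in clusters, and their order along the chromosome follows the body region in which they act.

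Of the 66 tested members, 5 passed the test (limma, Benjamini-Hochberg adjusted p at most 0.05 over all 8384 genes). Klf4, Foxa1, Klf17 and Sox2 lay above 0 and Foxp4 below it. This is 7.58% of the members, against 12.5% of all genes tested (7.69% above and 4.81% below 0), a share that does not set the members apart. At an unadjusted limma p under 0.05 there were 21 members, or 31.8%, which equals the 31.8% of all genes. The median size of a member's mean log ratio was 0.18, against 0.16 over all genes. Klf4 was the 1 member with a mean over 1 in size, where 2.14% of all genes had such a mean.

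**Figure D1:**
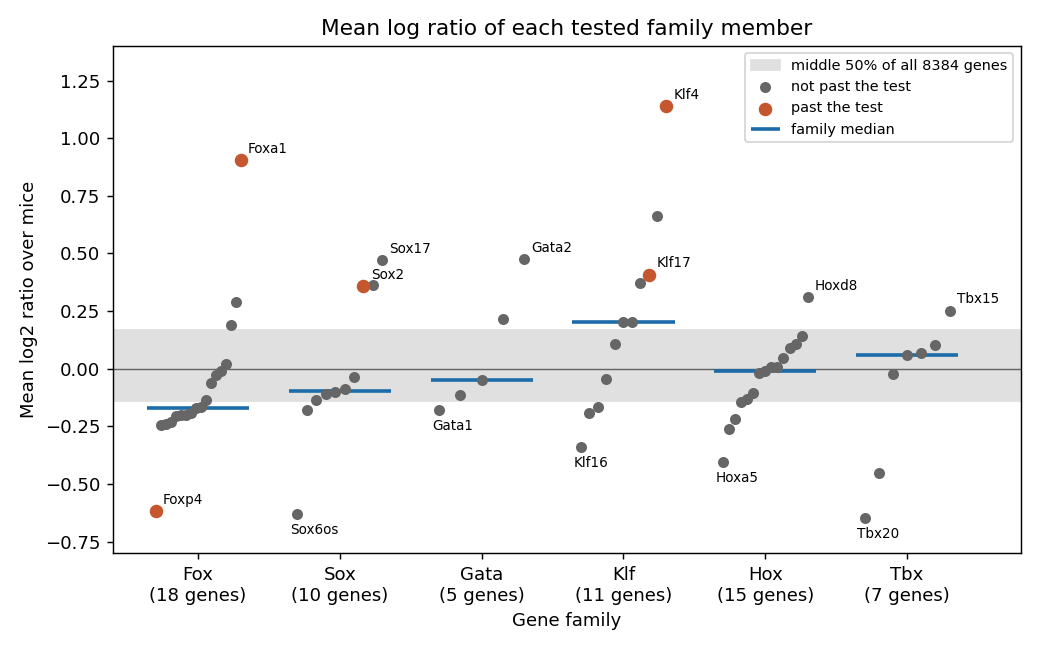
Mean log2 ratio over the mice (vertical axis) of each of the 66 tested members, by family; orange points passed the test, blue lines are family medians and the grey band holds the middle 50% of all 8384 genes. Klf4 at 1.14 and Foxa1 at 0.91 stand highest, and Tbx20 at -0.65, Sox6os at -0.63 and Foxp4 at -0.62 lowest, of which only Foxp4 passed.

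The Klf family has the member farthest from 0. Klf4 is a zinc finger factor of epithelia, endothelium and monocytes, and is also known as a reprogramming factor. It had log ratios of 1.61, 1.08, 1.13 and 0.75 in mice 1 to 4. All 4 mice lay well above 0, with a mean of 1.14 ± 0.36 (SD, n = 4), a 2.20-fold difference if the values are log2 (limma adjusted p = 0.0121). Klf4 was also past the test whichever mouse was left out, at limma adjusted p of 0.0283 to 0.0415, and lay farther from 0 than 98.6% of all tested genes.

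Klf17, a zinc finger gene best known from germ cells, had log ratios of 0.59, 0.31, 0.45 and 0.28. The mice lay close together and all above 0, with a mean of 0.41 ± 0.14 (SD, n = 4; limma adjusted p = 0.0309). Klf17 was lost whichever mouse was left out, at limma adjusted p of 0.0615 to 0.0941. Klf12, a transcriptional repressor, had values of 0.25, 0.46 and 0.41 in mice 1, 2 and 4 and just missed the threshold (mean 0.37 ± 0.11, SD, n = 3; limma adjusted p = 0.0566). Klf15, a regulator of metabolism that responds to glucocorticoids, had 0.97 and 1.52 in mice 1 and 2 but 0.07 and 0.09 in mice 3 and 4. All 4 values of Klf15 were above 0, yet their spread was as large as their mean (0.66 ± 0.71, SD, n = 4; limma adjusted p = 0.149).

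Klf2, the flow-responsive factor of endothelium, had 0.59, 0.19 and -0.16 in mice 1, 2 and 4 and lay on both sides of 0 (limma adjusted p = 0.431). Klf6, an injury-responsive factor, was above 0 in all mice, from 0.11 to 0.39, without passing (limma adjusted p = 0.125). The lowest Klf gene was Klf16 at -0.34 ± 0.28 (SD, n = 4; limma adjusted p = 0.114), with all 4 mice below 0. Klf1, the erythroid factor, lay near 0 in all mice, between -0.08 and -0.01. Klf10 (0.11), Klf13 (-0.16) and Klf7 (-0.19) had mixed signs over the mice.

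Of 18 Fox genes, Foxa1 passed above and Foxp4 below 0. Foxa1, a pioneer factor that opens chromatin in lung epithelium, had log ratios of 0.29, 1.23, 1.35 and 0.76. Mouse 1 was much lower than the others, and the mean was 0.91 ± 0.49 (SD, n = 4; limma adjusted p = 0.0353). Foxa1 passed without mouse 1 (limma adjusted p = 0.0319) and was lost without mouse 2, 3 or 4 (0.0882, 0.0930 and 0.0886). Of its relatives, Foxa3 had -0.35, -0.38 and 0.01 in mice 1, 2 and 4 (limma adjusted p = 0.212), and Foxa2 had no value.

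Foxp4, a repressor that works with Foxp1 and Foxp2 in the airway and alveolar epithelium, had log ratios of -0.24, -0.39, -0.97 and -0.87. Mice 3 and 4 lay far lower than mice 1 and 2, with no mouse above 0 (mean -0.62 ± 0.36, SD, n = 4; limma adjusted p = 0.0458). This value averages 2 probes, which had means of -0.73 and -0.50 and the same order of mice. Foxp4 was lost whichever mouse was left out, at limma adjusted p of 0.0579 to 0.137, and also when the arrays were scaled to a common spread (0.0519). Foxp1 was below 0 in every mouse, from -0.27 to -0.10, without passing (limma adjusted p = 0.112). Foxp2 (-0.01) and Foxp3, the regulatory T cell factor (0.02), had mixed signs.

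Most other Fox genes had small values below 0. Foxb2, Foxd3, Foxd4, Foxi1, Foxj2, Foxn1 and Foxn4 were below 0 on every array with a value, with means between -0.23 and -0.13, and none passed. Several of these are best known from other organs, such as Foxn1 in thymus epithelium and Foxd3 in the neural crest. Foxf1, which marks lung mesenchyme and endothelium, had 0.34, 0.52 and 0.01 in mice 1, 2 and 4 (mean 0.29; limma adjusted p = 0.186). Foxl1, another mesenchymal factor, was above 0 in all mice at 0.08 to 0.42 (limma adjusted p = 0.176). Foxo3, a target of the kinase Akt, averaged -0.06 with both signs, and Foxc1, a factor of blood vessel development, had values within 0.07 of 0.

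Foxj1, the master regulator of motile cilia, had log ratios of -0.51, -0.45, 0.07 and -0.09. Mice 1 and 2 were low and mice 3 and 4 near 0, so that the mean of -0.25 ± 0.28 (SD, n = 4) did not pass (limma adjusted p = 0.206). The 5 tested ciliated cell markers had medians of -0.45, -0.37, -0.10 and 0.08 in the same mice, and 0 of the 5 passed limma (3 at an unadjusted p under 0.05). The markers did not run alike. Cfap126 and Fam183b, genes of ciliated cells, were below 0 in all mice (means -0.31 and -0.33), while Ak7, an adenylate kinase of cilia, was above 0 in all mice at 0.19, 0.28, 0.68 and 0.35 (mean 0.37; limma adjusted p = 0.0600). The 6 tested ciliary targets of Foxj1 had medians of -0.06, -0.08, -0.002 and 0.15 in mice 1 to 4. That list shares genes with the ciliated markers. The part of ciliated cells in the Foxj1 values was not tested.

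In the Sox family, Sox2 was the member that passed. Sox2 maintains airway epithelium, including basal and club cells, and had log ratios of 0.49, 0.20, 0.50 and 0.25. Every mouse was above 0, with a mean of 0.36 ± 0.16 (SD, n = 4; limma adjusted p = 0.0460). Sox2 was lost whichever mouse was left out, at limma adjusted p of 0.0658 to 0.137. Sox9, which marks the distal tips of the developing airway, was slightly below 0 in its 3 mice (-0.10 ± 0.10, SD, n = 3; limma adjusted p = 0.455).

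The SoxF genes of endothelium varied more between mice than they differed from 0. Sox18 had log ratios of 1.05 and 0.77 in mice 1 and 2 but -0.28 and -0.08 in mice 3 and 4 (limma adjusted p = 0.350). Sox17 had 0.95, 0.47 and -0.01 in mice 1, 3 and 4 (limma adjusted p = 0.175). Their relative Sox7 was not higher in that way, at 0.10, -0.14, -0.56 and -0.11 (limma adjusted p = 0.336). The list of endothelial markers was chosen with earlier results of these data known. It had 10 of 14 tested genes past the test above 0 and 0 below, with medians of 0.81, 0.81, 0.75 and 0.52 in mice 1 to 4. With mice 1 and 2, and 3 and 4, as a random block, Emcn, Icam2, Ramp2 and Gpihbp1 lost their calls (limma adjusted p of 0.0534 to 0.097). They are named for that loss. On every array with a value, 13 of the 14 markers were above 0, and Ptprb was at -0.08 in mouse 2. The part of endothelial cells in the Sox17 and Sox18 values was not tested.

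Sox6os, a noncoding gene opposite Sox6, had -0.67, -0.05, -1.10 and -0.71. It was below 0 in all mice but nearly at 0 in mouse 2 (mean -0.63 ± 0.43, SD, n = 4; limma adjusted p = 0.0608), and passed without mouse 2 (0.0299). The sources used here do not state the strand of this spot, so Sox6 RNA cannot be told apart, and Sox6 itself had a value on 1 array only (0.16). Sox11, a factor of embryonic progenitors, averaged -0.11, but its probes disagreed: those with values had means of -0.27 and 0.18. With 1 probe per gene Sox11 passed below 0 (limma adjusted p = 0.0465). Sox14, Sox15 and Sox4 lay between -0.14 and -0.04.

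**Figure D2:**
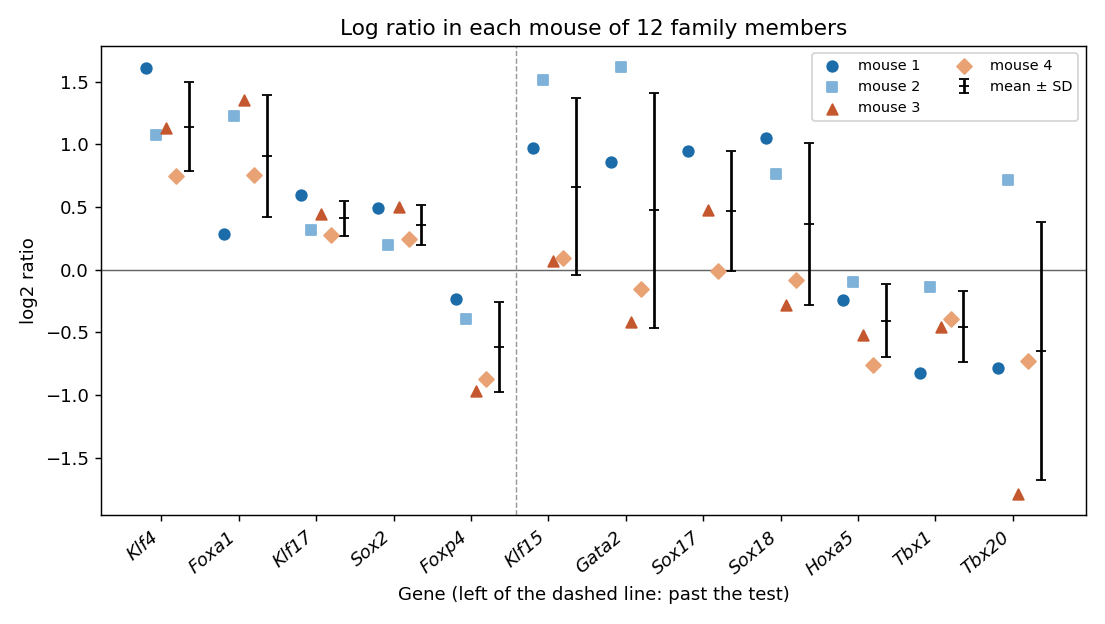
Log2 ratio in each mouse (symbols; vertical axis) of 12 members, with the mean and SD beside them. The 5 genes left of the dashed line passed the test and have every mouse on 1 side of 0; Gata2, Sox18 and Tbx20, right of it, have mice on both sides.

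No Gata gene passed limma, and 1 of 5 had an unadjusted p under 0.05, against 12.5% and 31.8% of all genes. Gata2, a factor of endothelium and of blood progenitors and mast cells, had log ratios of 0.86, 1.62, -0.42 and -0.16. Mice 1 and 2 lay far above 0 and mice 3 and 4 below it (mean 0.47 ± 0.94, SD, n = 4; limma adjusted p = 0.388). Gata3, the factor of T helper and innate lymphoid cells, was above 0 in all mice, at 0.37, 0.25, 0.18 and 0.08 (0.22 ± 0.12, SD, n = 4; limma adjusted p = 0.110). The T cell markers beside it had 1 of 7 genes past the test above 0, the adhesion gene Cd2 (lost without mouse 1, 3 or 4), and a median of -0.01. Gata1, the erythroid and eosinophil factor, was below 0 except in mouse 2 (-0.18 ± 0.24, SD, n = 4; limma adjusted p = 0.299). Gata6, a factor of alveolar epithelium, had a value in mice 1 and 3 only, 0.35 and 0.21, and was not tested.

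Tbx20, a cardiac T-box factor, had the widest range over mice of the tested members, with log ratios of -0.79, 0.71, -1.79 and -0.73. Only mouse 2 was above 0, and the SD of 1.03 exceeded the size of the mean, -0.65 (n = 4; limma adjusted p = 0.288). Gata4, which acts with it in heart muscle, had -0.42, 0.29 and -0.21 in mice 1, 2 and 3, again with mouse 2 alone above 0 (limma adjusted p = 0.661). Gata5, its close relative, had -0.25, -0.20, 0.25 and 0.00.

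Heart and skeletal muscle can be taken out together with a lung. The 13 tested striated muscle markers had 7 past the test below 0 and 0 above, with medians of -2.68, -0.81, -2.32 and -1.70 in mice 1 to 4. With mice 1 and 2, and 3 and 4, as a random block, only Tnnc2 and Myl1 kept the call (limma adjusted p = 0.0102 and 0.0157). The other muscle calls were lost with the block (limma adjusted p of 0.0571 to 0.101). Actc1, cardiac actin, had -1.57, 0.80, -2.45 and -0.91, and Myl7, an atrial myosin light chain, had -1.19, 0.07 and -2.20 in mice 1 to 3. Both were highest in mouse 2 and lowest in mouse 3, as was Tbx20; the muscle markers named here were picked from the list after their values were seen. Of the 13 markers, 6 had this order, 9 were highest in mouse 2 and 6 were lowest in mouse 3. Others ran differently: Tnnc2, a fast skeletal troponin, was lowest in mouse 2 (-4.96, -5.51 and -4.24 in mice 1, 2 and 4). Tnnt3, another skeletal troponin, had -5.13, -4.52, 0.10 and -1.56 and was highest in mouse 3. Myh6, a cardiac myosin, had -1.64, 0.97, -0.47 and 0.45 and was lowest in mouse 1. The order of Tbx20 was also seen outside muscle. Fat markers had medians of -1.83, -0.20, -2.19 and -2.03 in mice 1 to 4, and Sox6os was likewise highest in mouse 2 and lowest in mouse 3. The part of heart tissue in the Tbx20 and Gata4 values was not tested.

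**Figure D3:**
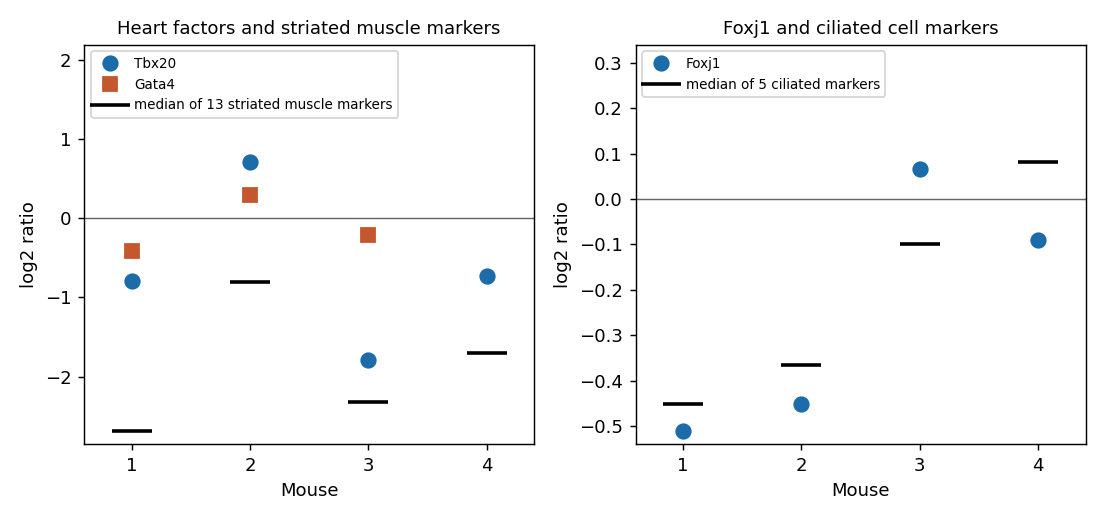
Log2 ratio in each mouse of Tbx20 and Gata4 beside the median of 13 striated muscle markers (left) and of Foxj1 beside the median of 5 ciliated cell markers (right). Tbx20, Gata4 and the muscle median are highest in mouse 2, and Foxj1 and the ciliated median are both lower in mice 1 and 2 than in mice 3 and 4.

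Of the 7 tested Tbx genes, 0 passed limma, with 2 at an unadjusted p under 0.05, against 12.5% and 31.8% of all genes. Tbx1, which acts in pharyngeal and vascular development, was below 0 in all mice at -0.82, -0.14, -0.46 and -0.40 and just missed the threshold (-0.45 ± 0.28, SD, n = 4; limma adjusted p = 0.0583). Tbx15, a mesenchymal factor, was above 0 in all mice (0.25 ± 0.18, SD, n = 4; limma adjusted p = 0.113). In mouse 2 its value of 0.10 averages 2 probes at 0.40 and -0.21, of which the second had no value elsewhere. Tbx2, a growth-promoting factor of lung mesenchyme, averaged 0.10 with mixed signs (limma adjusted p = 0.448). Tbx18 had -0.37 and 0.02 in mice 1 and 2 and 0.35 and 0.26 in mice 3 and 4. Tbx5, which acts in lung bud mesenchyme, had 0.06 and -0.05 in mice 1 and 4 and was not tested.

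Of the 15 tested Hox genes, 0 passed limma and 4 had an unadjusted p under 0.05, against 12.5% and 31.8% of all genes. Hoxa5, the Hox gene best known for lung and airway development, was lowest, with log ratios of -0.24, -0.10, -0.52 and -0.76. Each mouse was below 0, and the mean was -0.41 ± 0.29 (SD, n = 4; limma adjusted p = 0.0818). Hoxb3 (-0.26 ± 0.16, SD, n = 4; limma adjusted p = 0.0939) and Hoxa4 (-0.22 ± 0.07, SD, n = 4; limma adjusted p = 0.0804) were also below 0 in every mouse. Hoxd8 was highest, with 0.31, 0.73, 0.15 and 0.05 and every mouse above 0 (limma adjusted p = 0.150). The other 11 tested Hox genes had means between -0.14 and 0.14.

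By position in the clusters, the 7 tested genes of paralogue groups 1 to 4 had a median of 0.01, the 4 of groups 5 to 8 of 0.07 and the 4 of groups 9 to 13 of -0.06. By cluster, 1 of 5 Hoxa genes, 1 of 2 Hoxb genes, 3 of 3 Hoxc genes and 2 of 5 Hoxd genes had a mean above 0. Hox genes were also the family with fewest values: 15 of 36 (41.7%) could be tested and 10 (27.8%) had none, against 62.5% and 14.2% of all named genes.

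**Figure D4:**
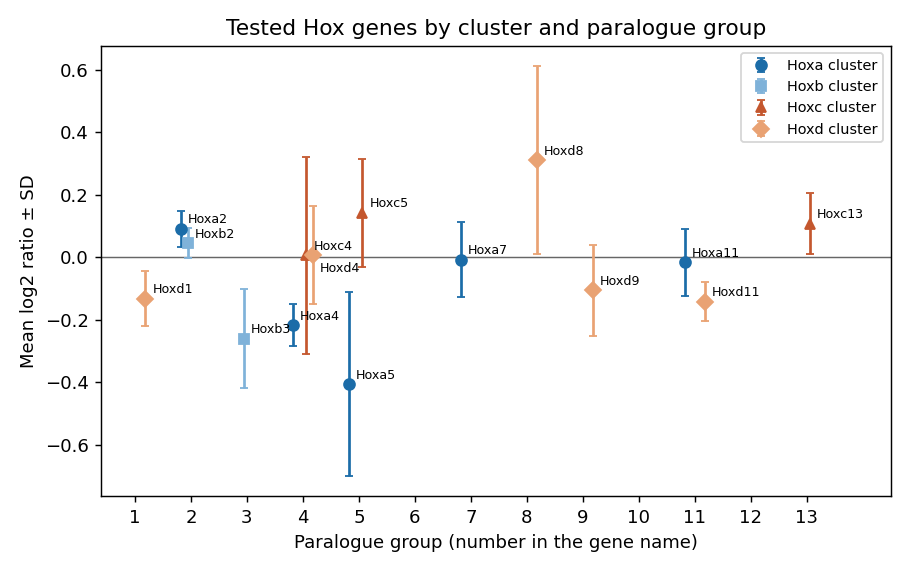
Mean log2 ratio ± SD over mice (vertical axis) of the 15 tested Hox genes by paralogue group, the number in the gene name (horizontal axis); symbols mark the cluster. Hoxa5 at -0.41 and Hoxd8 at 0.31 are the extremes, and the other 13 means lie between them.

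Compared as families over the gene means, Klf had the highest median and Fox the lowest, an order that did not hold in every mouse. The median of the gene means was 0.20 for Klf, 0.06 for Tbx, -0.01 for Hox, -0.05 for Gata, -0.10 for Sox and -0.17 for Fox, against 0.00 for all genes. The Fox median was below 0 in each mouse, at -0.14, -0.11, -0.17 and -0.09. The Klf median was 0.28, 0.16, 0.00 and 0.09, so it was above 0 in 3 of 4 mice. The Tbx median was -0.003, 0.033, -0.096 and -0.012, so it was above 0 in mouse 2 only. Klf exceeded Fox in every mouse, by 0.26 ± 0.12 on average (SD, n = 4). Gata had the highest median in mouse 2, and Fox had the lowest in mice 2 and 4, with Gata lowest in mouse 1 and Sox in mouse 3. Of 15 pairs of families, 7 were ordered the same way in all 4 mice, of which 4 involved Klf. These orders were not tested, since members are not replicates, and the differences are small beside the spread of genes within a family, from -0.62 to 0.91 in Fox.

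Without mouse 1 the Klf median was 0.02, below the Gata median of 0.04, and the Tbx median lay on either side of 0 depending on the mouse left out (-0.05 to 0.02). The Gata median had no stable sign, since Gata genes had a median of -0.23 in mouse 1 and 0.25 in mouse 2.

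**Figure D5:**
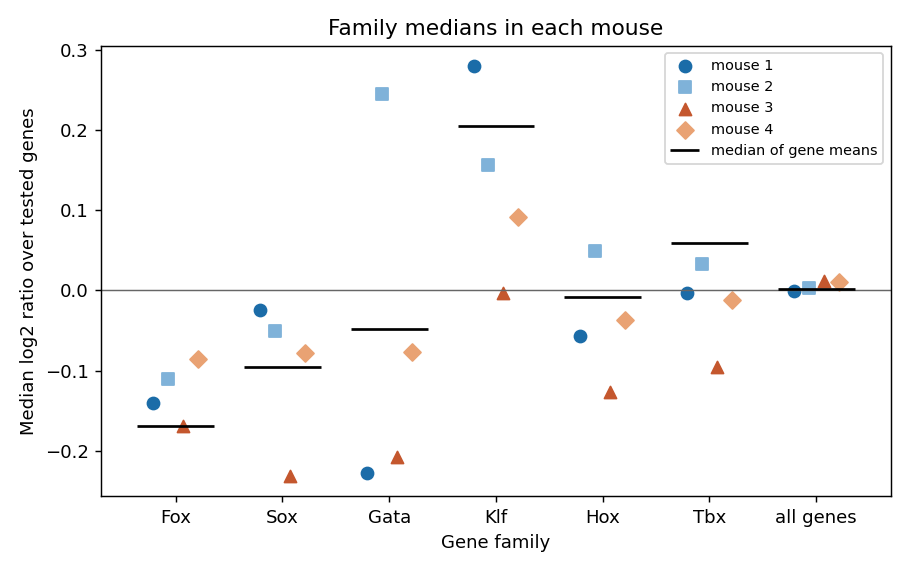
Median log2 ratio over the tested members of each family in each mouse (symbols), and the median of the gene means (line), which can lie outside the mouse values because it averages each gene first. The Fox medians are below 0 in all mice, the Gata medians spread from -0.23 to 0.25, and the medians of all genes lie at 0.00 to 0.01.

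The sign of a gene was the same on every array with a value for 35 of 66 members, or 53.0%, against 46.7% of all genes. Of these members, 14 lay above 0, where 24.3% of all genes did, and 21 below, where 22.3% did. Of the 18 Fox genes, 9 were among these 21, beside the 22.3% of all genes. By mean, 14 of 18 Fox genes were below 0, against 4171 of all 8384 genes. Neither count was tested, since members are not replicates. The Fox genes below 0 on every array with a value include Foxp1, Foxp4 and the group from Foxb2 to Foxn4 given above.

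Partners, regulators and targets of the families were taken from lists set out for this purpose with earlier results of these data known. Of their 84 tested genes, 11 passed (13.1%), 9 above and 2 below 0, a share close to the 12.5% of all genes. Of the 11, S1pr1, Tek, Cav1 and Sftpa1 passed whichever mouse was left out, and 6 passed with mice 1 and 2, and 3 and 4, as a random block, these 4 with Cldn5 and Bmpr2. The endothelial genes known as targets of Klf2 and Klf4 had 5 of 9 members past the test above 0 and 0 below, with a median of 0.55. S1pr1, the receptor for sphingosine-1-phosphate, had 1.30, 0.96, 0.90 and 0.97, and all mice were alike (mean 1.03; limma adjusted p = 0.0065). The angiopoietin receptor Tek had a mean of 1.18, Cav1 of 0.91, the water channel Aqp1 of 0.80 and the anticoagulant receptor thrombomodulin, Thbd, of 0.55. Thbd was higher in mice 1 and 2 (0.83 and 0.75) than in mice 3 and 4 (0.33 and 0.31). Thbd and Aqp1 were lost whichever mouse was left out, at limma adjusted p of 0.0664 to 0.101 and 0.0570 to 0.0883. Vcam1, an adhesion gene that Klf2 represses, had -1.26, -0.95, -0.11 and -0.15 and did not pass (limma adjusted p = 0.116). Ace was below 0 in all mice and Plvap in all but mouse 1, with means of -0.34 and -0.33 (limma adjusted p = 0.176 and 0.217). Nos3 had both signs, with a mean of 0.27 (limma adjusted p = 0.290). By mean, 6 of the 9 targets lay above 0 and 3 below. S1pr1, Tek and Cav1 are also among the endothelial markers above, so the lists are not independent. From the list of Klf2 and Klf4 targets, Vcam1, Ace, Plvap, Nos3 and Aqp1 were picked after their values were seen. So were Notch4, Flt4, Dll4, Cdh1, Txnip, Gadd45a and Sp1 from the lists below.

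Of 12 vascular genes linked to the SoxF factors, the tight junction gene Cldn5 passed above 0 (0.83 ± 0.28, SD, n = 4; limma adjusted p = 0.0157; 0.0521 without mouse 4) and 0 passed below. Notch4, a receptor gene of arteries, had 0.89, 0.49, 0.16 and 0.17 and did not pass (limma adjusted p = 0.0982). Flt4 and Dll4 went the other way, below 0 in all mice, with means of -0.39 and -0.18 (limma adjusted p = 0.0586 and 0.167). By mean, 9 of the 12 genes lay above 0 and 3 below. Of 10 genes of lung epithelium linked to Foxa and Nkx2-1, the surfactant gene Sftpa1 passed above 0 (1.28 ± 0.26, SD, n = 4; limma adjusted p = 0.0065). Cdh1, E-cadherin, had 0.05, -0.13, 1.54 and 1.14, high in mice 3 and 4 only (limma adjusted p = 0.196). Of 10 signals of lung mesenchyme, the receptor gene Bmpr2 (0.44 ± 0.06, SD, n = 4; limma adjusted p = 0.0161) and the growth factor gene Fgf7 (0.63 ± 0.37, SD, n = 4; limma adjusted p = 0.0456) passed above 0. Leaving out mouse 1, 3 or 4 ended the call of Bmpr2 (limma adjusted p of 0.0525 to 0.0644), and leaving out any 1 mouse did so for Fgf7 (0.0524 to 0.0943).

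Below 0, Spi1, the myeloid factor that antagonises Gata1, passed as the 1 of 8 Gata cofactors (-0.88 ± 0.42, SD, n = 4; limma adjusted p = 0.0279). Spi1 was lost without mouse 2, 3 or 4 (limma adjusted p = 0.0564, 0.0862 and 0.0845) and with the block (0.0743). Beside it, 2 of 4 neutrophil markers passed below 0, S100a8 and S100a9, and 2 of 6 macrophage markers above 0. Of the macrophage calls, Mertk was lost with the block (limma adjusted p = 0.0744). Meis3 passed below 0 as 1 of 5 Hox cofactors (-0.37 ± 0.15, SD, n = 4; limma adjusted p = 0.0395). Meis3 was lost whichever mouse was left out, at limma adjusted p of 0.0534 to 0.128, and with the block (0.0875). None of the 9 genes of retinoic acid signalling, 6 Sp genes, 9 Foxo kinases and targets or 6 ciliary targets of Foxj1 passed limma, with 0, 1, 2 and 3 at an unadjusted p under 0.05. Among all genes, these shares were 12.5% and 31.8%. In the Foxo list, Txnip and Gadd45a had means of 0.74 and 0.79 (limma adjusted p = 0.0965 and 0.0710), and in the Sp list Sp1 had -0.41 (0.0728).

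The start regions of the 5 members that passed are shown so that the sequence ahead of each can be set beside its values. Each is the 250 bases before the RefSeq start in GRCm38.p6, on the gene's strand, in lower case with motif matches in capitals. One core motif per family was searched on both strands: TAAACA for Fox, ACAAAG for Sox, AGATAA for Gata, CACCC for Klf, TAATTA for Hox and AGGTGT for Tbx. Klf4 lies at chr4:55532476-55532725 (minus strand), Foxa1 at chr12:57546112-57546361 (minus), Klf17 at chr4:117765667-117765916 (minus), Sox2 at chr3:34649745-34649994 (plus) and Foxp4 at chr17:47924633-47924882 (minus).
Klf4: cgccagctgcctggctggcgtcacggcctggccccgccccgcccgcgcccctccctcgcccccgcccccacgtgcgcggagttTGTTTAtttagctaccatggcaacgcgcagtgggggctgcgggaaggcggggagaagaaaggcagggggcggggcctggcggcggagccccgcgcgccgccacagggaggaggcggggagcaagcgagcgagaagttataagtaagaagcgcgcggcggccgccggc
Foxa1: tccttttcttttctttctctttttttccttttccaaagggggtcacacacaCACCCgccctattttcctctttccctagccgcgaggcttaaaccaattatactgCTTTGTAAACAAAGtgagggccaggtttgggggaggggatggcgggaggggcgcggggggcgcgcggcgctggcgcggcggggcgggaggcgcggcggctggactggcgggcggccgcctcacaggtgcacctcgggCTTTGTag
Klf17: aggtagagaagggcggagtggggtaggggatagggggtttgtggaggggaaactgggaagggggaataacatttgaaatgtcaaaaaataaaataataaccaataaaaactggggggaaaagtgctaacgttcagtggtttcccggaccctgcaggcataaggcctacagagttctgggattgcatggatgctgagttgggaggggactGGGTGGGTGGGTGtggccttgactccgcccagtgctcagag
Sox2: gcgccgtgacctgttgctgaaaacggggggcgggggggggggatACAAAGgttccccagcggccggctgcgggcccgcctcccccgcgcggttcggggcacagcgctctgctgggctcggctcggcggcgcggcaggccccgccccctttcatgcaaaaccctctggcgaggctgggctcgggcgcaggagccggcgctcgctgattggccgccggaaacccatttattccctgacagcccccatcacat
Foxp4: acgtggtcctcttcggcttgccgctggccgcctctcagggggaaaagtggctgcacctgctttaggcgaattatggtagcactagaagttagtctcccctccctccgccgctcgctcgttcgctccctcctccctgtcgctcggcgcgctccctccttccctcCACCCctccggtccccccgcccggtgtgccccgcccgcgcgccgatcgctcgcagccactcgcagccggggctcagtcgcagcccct

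The Foxa1 window holds 1 Fox core, TAAACA, overlapped on both sides by Sox cores, a further Sox core near the start and 1 Klf core. The Klf4 window holds 1 Fox core, written TGTTTA on this strand, and no CACCC. The Klf17 window holds 3 Klf cores that overlap each other, written GGGTG here, the Foxp4 window 1 Klf core and the Sox2 window 1 Sox core. No Gata, Hox or Tbx core was found in these 5 windows, which says only that these letters are not there.

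Such matches are common. The Klf core was found in 52.0% of all 32851 RefSeq windows and in 35 of 54 windows (64.8%) of the 48 tested members that had one. The Fox core was found in 3952 of all windows and in 7 of the members' 54, and the Sox core in 16.5% of all and 16.7% of the members' windows. The Hox core was found in 4.84% of all windows and in 6 of the members' 54 (11.1%), the Gata core in 9.99% and 3.70%, and the Tbx core in 11.8% and 5.56%. A match is a description of the sequence and not a binding site, and the GC content of the printed windows ran from 52.0% (Klf17) to 74.0% (Klf4) with a median of 52.4% over all windows.

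Of the 44 members not tested, 11 had values on 2 arrays, 16 on 1 and 17 on none. Among those with 2 values, Foxc2, a lymphatic vessel factor, had -0.27 and -0.47 in mice 1 and 2, Klf5, a factor of airway epithelium, had -0.03 and -0.20 in the same mice, and Foxo1 had 0.11 and -0.03 in mice 2 and 4. Hoxd13, a limb gene, had 0.16 and 0.15 in mice 1 and 3. Foxa2, Foxb1, Foxf2, Klf3, Klf9, Sox13 and Sox21 had no value, nor did Hoxa3, Hoxa9, Hoxa13, Hoxb5, Hoxb6, Hoxb8, Hoxb13, Hoxc6, Hoxc8 and Hoxc9.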

How the data were processed

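Lung RNA of 4 bleomycin-treated mice was compared with 1 control pool on 2-colour arrays, per the labels. The authors deposited 1 log ratio per spot and array, taken here as log2. The sources used here do not give the base, direction, dyes, background correction or normalization. The lowest and highest deposited values were -6.1 and 4.36, and a natural log cannot be told apart, which would change sizes but not tests. Of 17280 spots, 12136, 11373, 9427 and 10282 had a value in mice 1 to 4. The number of arrays limits the precision.

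Probes were named through the platform's annotation of 14723 spots, 1 of them with several symbols; gene IDs of 14445 matched RefSeq (GRCm38.p6), with 0 symbols changed. Arrays were centred on their medians, probes averaged per symbol, and genes with at least 3 values tested against 0 (R 4.3.3 with limma 3.58.1; lmFit with an intercept, eBayes, two-sided, Benjamini-Hochberg over all 8384 genes), checked on simulated data. P-values measure the spread between these arrays. As each mouse has 1 array, differences between mice and between arrays cannot be told apart in that spread. A dye effect shared by all arrays would not enter it.

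The rule for named genes took members past the test, each family's extremes, members of textbook lung role, at most 4 passing genes per partner list and at most 3 markers per cell type; genes outside it are said to be so. The members and lists were chosen with earlier results of these data known. Lists of partners and of 17 cell types were described by counts and medians. Alternatives were no centring, scaling, other minimums of values, 1 probe per gene, robust eBayes, leaving out each mouse, and mice 1 and 2, and 3 and 4, as a random block. The deposited table had 0 further value columns.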

Additional observations from a re-analysis of the deposited data

How the results depend on the processing

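With mice 1 and 2, and mice 3 and 4, as a random block (consensus correlation 0.304), a pairing seen in the data and given by no label, 1 member passed limma, Klf4, with 0 Fox, 0 Sox and 1 Klf genes, 6 partner genes (0 of them below 0) and 402 genes in all. Leaving out 1 mouse at a time left 1 to 2 members past the test, 0 to 1 Fox, 0 to 1 Sox and in each case 1 Klf gene, 5 to 8 partner genes and 296 to 573 genes. The medians then ran from -0.17 to -0.11 for Fox, 0.0230 to 0.2167 for Klf and -0.0495 to 0.0150 for Tbx. Fox calls fell to 1 when arrays were scaled to a common spread and when values on at least 2 arrays sufficed, as Foxp4 was lost, and Sox calls rose to 2 with 1 probe per gene, through Sox11. The cause was not tested. Hox, Gata and Tbx had 0 calls under each of the 11 alternatives, where 3.53% to 17.6% of all genes passed. In the main setting these families had 15, 5 and 7 tested genes, and whether they differ from all genes was not tested. Of 705 member values under alternatives, 664 kept their call and direction, 21 lost and 2 gained a call, and 18 changed sign, in 12 genes with no call and means of at most 0.112 in size. No called gene reversed. No paired analysis was possible because there is 1 group of mice and 1 pool.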

Other observations

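The marker lists not given above moved as follows, beside 7.69% of all genes past limma above 0 and 4.81% below. Of all genes, 31.8% had an unadjusted limma p under 0.05. Fat markers had 4 of 5 tested genes past limma below 0, with medians of -1.83, -0.20, -2.19 and -2.03 in mice 1 to 4. All of these fat calls were lost with the block (limma adjusted p of 0.0505 to 0.0866). Alveolar type I markers had 3 of 9 above and 1 below 0, and alveolar type II markers 1 of 6 above. Club cell markers had 2 of 8 above and erythroid markers 1 of 4 above (Alas2 at 0.53, lost whichever mouse was left out). By mean, 3 of the 4 erythroid markers lay above 0 and 1 below, Epor at -0.33. Mast cell and eosinophil markers had 1 of 3 above, Kit, a receptor gene of mast cells, at 0.67 ± 0.20 (SD, n = 4). The limma adjusted p of Kit was 0.0152, and the call was lost without mouse 3. The rest of that list, Cpa3 and Tpsb2, lay below 0 by mean, at -0.18 and -0.16, without passing. Fibroblast markers had 1 of 10 on each side. With the block, the calls of Pi16 (fibroblast), Cbr2 (club) and Aqp5 (alveolar type I) were lost (limma adjusted p of 0.0656 to 0.0956). Smooth muscle (7 tested), B cell (5 tested) and mesothelial markers (2 tested) had 0 past limma, with 0, 1 and 0 at an unadjusted p under 0.05, and no nerve marker could be tested.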
